A study of Mus musculus with 4 samples.

Results

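The comparison set 1 droplet library of hydroxyurea-treated wild-type mammary organoids against 1 library of untreated wild-type organoids. Cells were kept when they held 1000 to 6000 detected genes and under 5% mitochondrial UMIs (unique molecular identifiers, each standing for 1 captured RNA molecule). That left 9929 of the 17360 cells the same filter kept in the whole series, 5312 of 9358 deposited cells in the control library and 4617 of 8158 in the hydroxyurea (HU) library. Organoids here are 3-dimensional cultures of mouse mammary epithelium grown in a matrix, and both libraries carry the Wildtype genotype in the labels. The other 2 libraries of the series come from organoids heterozygous for a truncating germline Brca2 mutation (Brca2mut/WT), again without and with HU, and serve only as a side-by-side reading. By the study's methods, HU was given again at each passage and organoids of passages 0 and 4 were frozen, thawed and regrown before dissociation, so the RNA was not sampled directly after a dose. The labels name no passage, so each library may hold cells of either or of both, and how often those cells had met HU is not known here. The labels state 2 replicates in each library and the study 3 mice per condition, and neither says which cells belong to which.

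Each library also held counts for 4 antibody tags, which mark pools of cells stained before mixing. The files give no key to the tags, so the pools are numbered 1 to 4 here and cannot be assigned to animals, replicates or passages. Pools of the same number in both libraries are not known to match. A single tag was called in 4763 control cells and 4200 HU cells. The pools differed widely within each library, with pools 1 and 3 apart from pools 2 and 4 in both. Pool 2 held 6.80% of single-tag cells in the control library and 27.6% in the HU library. With 1 library a side no test of treatment was possible, and every interval given covers counting error only. The spread over pools is printed for part of the values, and a value without it may overlap between libraries.

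HU inhibits ribonucleotide reductase, the enzyme that makes deoxynucleotides, and so starves and stalls replication forks. Stalled forks activate the ATR checkpoint and can stabilise p53, which switches on genes such as Cdkn1a, the p21 inhibitor of cyclin-dependent kinases. Mammary epithelium consists of an outer basal, myoepithelial layer and an inner luminal layer, whose cells either express hormone receptors (HR+) or lack them and can become milk-producing (HR-). The lineages differ in how often their cells divide, and they were therefore compared one at a time.

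Lineages were gated per cell on CPM, the UMIs of a gene scaled to a fixed total per cell or gate. Basal cells had at least 500 CPM of Krt14, HR+ luminal cells at least 300 CPM of Areg, and HR- luminal cells under 300 CPM of each. The HR- luminal gate held 4209 control and 3457 HU cells, the basal gate 757 and 896, and the HR+ luminal gate 224 and 174. Several marker genes that the gates did not use differed between the 3 gates, but not every preset marker did. In control cells the basal marker Mylk stood at 8.45 CPM in the basal and 11.6 in the HR- luminal gate, and Oxtr at 8.88 and 7.13. Aldh1a3, listed as an HR- luminal marker, had 28.7 CPM in HR- and 28.2 in HR+ luminal control cells. Csn3, a milk casein, stood at 21471 CPM in control HR- luminal cells against 1774 in basal cells, and the alveolar regulator Elf5 at 95.4 against 9.24 CPM. The basal keratin Krt5 reached 2785 CPM in control basal cells and 34.1 in HR- luminal cells. Prlr, the prolactin receptor, reached 862 CPM in control HR+ luminal cells and Pgr, the progesterone receptor, 125 CPM, against 2.27 CPM of Pgr in HR- luminal cells. Ptprc of immune cells, Cdh5 of endothelium and Adipoq of fat cells stayed below 1 CPM in every gate. Another endothelial marker, Vwf, reached 2.96 CPM in control and 9.57 in HU HR+ luminal cells. Of 6 fibroblast markers 1, the proteoglycan gene Dcn, was high in HR+ luminal cells, at 693 CPM in control and 1028 in HU, with Col1a1, Col1a2, Col3a1, Lum and Pdgfra below 1 CPM there. The summed list ranged from 243 to 1814 CPM in control HR+ luminal pools and from 4.18 to 1430 in HU pools. Median depth was 24718 and 24963 UMIs per HR- luminal cell in control and HU, 21981 and 21577 per basal cell, and 24609 and 27170 per HR+ luminal cell. A total of 48 control and 28 HU cells passed both the basal and the HR+ gate and were counted in each, and 30 cell barcodes occurred in both libraries.

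The HU library held fewer HR- luminal and more basal cells than the control library, but neither difference kept its sign without HU pool 2. HR- luminal cells made up 79.2% of control and 74.9% of HU cells, basal cells 14.3% and 19.4%, and HR+ luminal cells 4.22% and 3.77%. In control pools 1 to 4 the HR- luminal share was 90.9%, 66.0%, 91.0% and 48.8%, and in HU pools 87.9%, 52.6%, 92.1% and 58.4%. Basal cells made up 5.34%, 19.8%, 5.90% and 41.1% of the control pools and 9.11%, 37.6%, 5.97% and 34.6% of the HU pools. Ranges of both libraries overlapped for each gate, and the plot of gate shares shows pools 2 and 4 apart from pools 1 and 3. Leaving out HU pool 2 took the HR- luminal difference from -4.36 to 3.10 percentage points and the basal difference from 5.16 to -0.948. With stricter gates and all pools kept, the HR- luminal difference was 0.184 and the basal difference 6.01 points. The HR+ luminal difference of -0.448 points ran from -2.23 to 1.07 as single pools were left out.

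**Figure D1:**
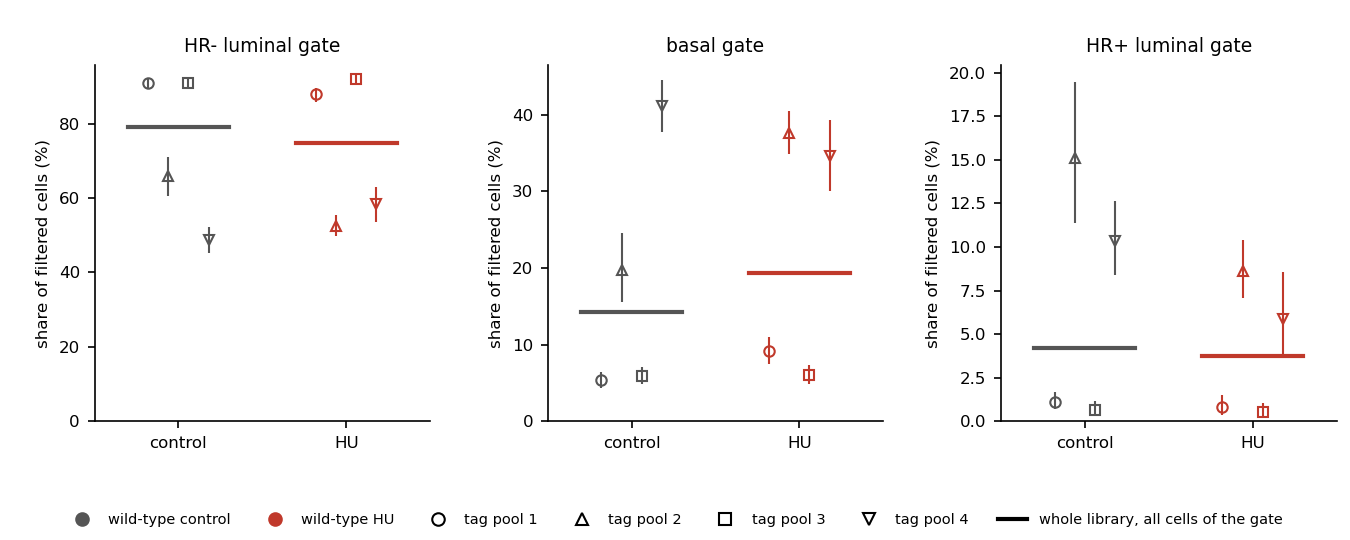
Share of filtered cells (%, vertical axis) in the HR- luminal, basal and HR+ luminal gates for the control (grey) and HU (red) library. Symbols are tag pools 1 to 4 with exact 95% binomial intervals, bars are whole libraries, and pools 2 and 4 hold a lower HR- luminal share (48.8% to 66.0%) than pools 1 and 3 (87.9% to 92.1%) in both libraries.

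Gene levels were compared as log2 ratios of HU over control CPM in the summed cells of a gate, with 1 CPM added to each. A gene was tested when it reached 20 CPM in either library, and it was called when the ratio was at least 1.5-fold. A stricter rule also asked that the ranges of the tag pools with at least 20 cells did not overlap between libraries. A lower sum can come from fewer expressing cells or from less RNA per cell, and these cannot be told apart in a sum.

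The HR- luminal cells of both libraries differed in few genes: of 5380 genes, 26 (0.483%) were called higher in HU and 30 (0.558%) lower. Under the stricter rule 5 genes (0.0929%) were higher and 8 (0.149%) lower. Basal cells differed more, with 146 of 5859 genes (2.49%) higher and 187 (3.19%) lower, and 48 (0.819%) and 44 (0.751%) under the stricter rule. In HR+ luminal cells 216 of 6060 genes (3.56%) were higher and 294 (4.85%) lower, but this gate had the fewest cells and thus the largest counting error. Only control pools 1, 2 and 4 and HU pools 2 and 4 held 20 HR+ luminal cells, so the stricter rule is weak there, and it kept 135 higher (2.23%) and 234 lower (3.86%). At any fold, 18.4% of HR+ luminal genes were higher and 15% lower without overlap. The same shares were 4.92% and 3.53% in basal and 3.36% and 4.89% in HR- luminal cells. Gene lists were read against these shares. A wider cell filter, with no upper limit on genes and under 10% mitochondrial UMIs, left 69 higher and 117 lower in basal and 111 and 171 in HR+ luminal cells.

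**Figure D2:**
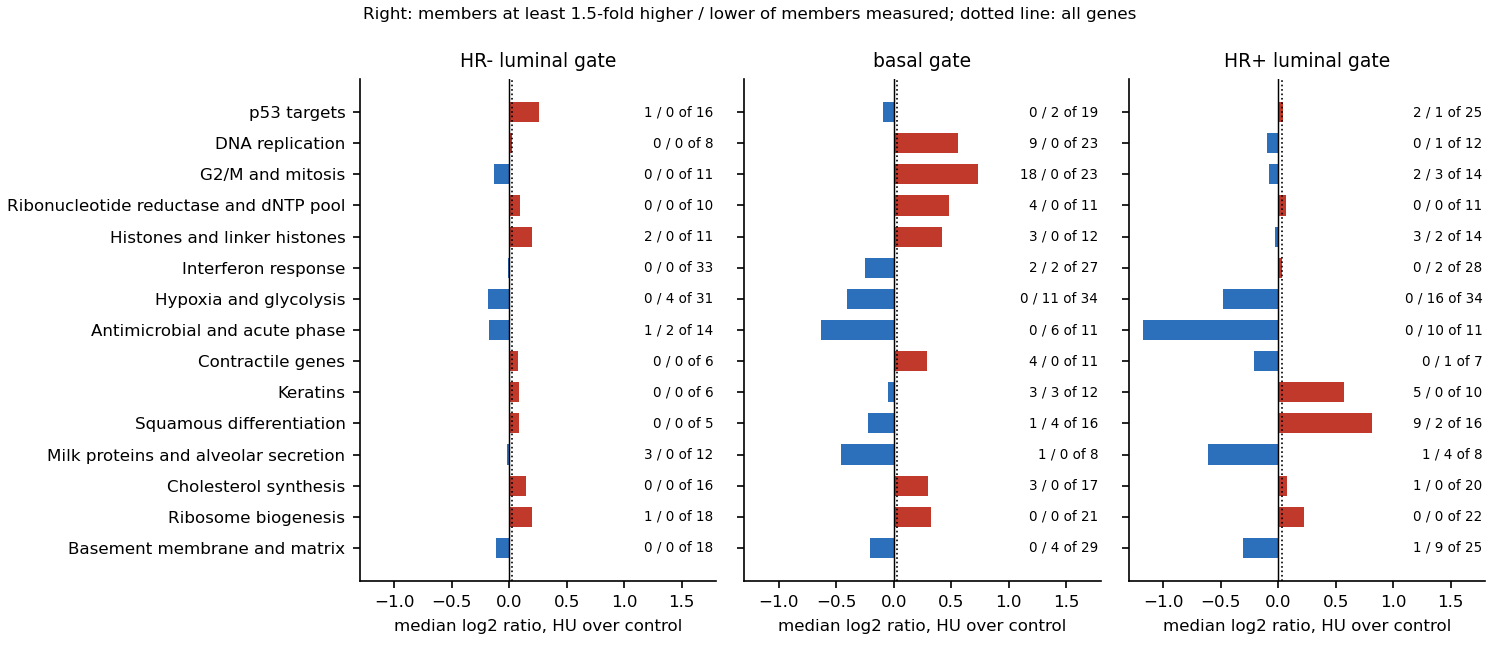
Median log2 ratio of HU over control (horizontal axis) for 15 gene lists in the 3 gates, with bars to the right higher in HU. Numbers give members called higher and lower of members tested, and the dotted line marks all genes tested: p53 targets stood to the right in the HR- luminal gate (0.26), G2/M genes in the basal gate (0.73), and hypoxia genes to the left in every gate (-0.18, -0.41 and -0.48).

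In HR- luminal cells Slc7a11 and Hist1h1c were highest in HU relative to control among genes whose pools did not overlap. Slc7a11, which encodes the cystine and glutamate exchanger that feeds glutathione synthesis, was at 9.78, 11.2, 7.99 and 8.29 CPM in control pools 1 to 4 and at 24.0, 22.3, 19.0 and 18.2 CPM in HU pools. Every HU pool lay above every control pool, and the library values were 8.98 CPM (95% interval 8.41 to 9.57) and 20.9 CPM (19.96 to 21.9), a log2 ratio of 1.14. The Brca2mut/WT libraries gave 1.01 for the same gene. Hist1h1c, the linker histone H1.2 gene, was at 39.2, 45.1, 37.6 and 41.3 CPM in control pools and at 84.8, 56.6, 80.5 and 61.9 in HU pools, a log2 ratio of 0.92, with 1.02 in the Brca2mut/WT pair. Again no pool overlapped, and Hist1h1c was also higher without overlap in basal cells (38.4 to 57.0 CPM, log2 ratio 0.56, under the 1.5-fold mark) and HR+ luminal cells (57.0 to 101 CPM, 0.82). Without the cell richest in Hist1h1c in each library these ratios were 0.47 and 0.62, and cells that passed both gates were counted in each. Mat2a, whose product makes S-adenosylmethionine, went from 68.8 CPM in control to 111 in HU (0.68), Mir22hg, the host transcript of miR-22, from 32.9 to 52.4 (0.66), and the clock gene Per1 from 13.1 to 20.4 (0.60). Tubb2a, Plekhf2 and Dnaaf2 also separated, at log2 ratios of 0.54, 0.51 and 0.51, under the 1.5-fold mark.

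Among genes lower in HU, Letm2 of the mitochondrial inner membrane was at 37.4, 18.5, 39.6 and 15.6 CPM in control pools and 12.7, 12.6, 13.1 and 6.44 in HU pools. No HU pool reached the lowest control pool, and the log2 ratio of -1.41 stood beside -1.19 in the Brca2mut/WT pair. G0s2, an inhibitor of fat breakdown, was at 108 CPM in control and 64.1 in HU (-0.75, Brca2mut/WT pair -1.06). Fzd7, a Wnt receptor, had 29.7 and 19.2 CPM (-0.61), Clec2d, a ligand of natural killer cell receptors, 27.5 and 16.0 (-0.74), and Rsrp1 121 and 76.4 (-0.66). The non-coding RNAs Tsix, transcribed across Xist on the opposite strand, and Kcnq1ot1, an imprinted antisense transcript, gave -0.86 and -0.65, with 0.08 for Tsix in the Brca2mut/WT pair. Sox9, a transcription factor of mammary progenitors, separated in all 3 gates, which was noticed after the values were seen. It was at 117, 118, 123 and 93.2 CPM in control HR- luminal pools and 82.1, 61.2, 87.4 and 64.8 in HU pools, a log2 ratio of -0.57, just under 1.5-fold. Basal Sox9 ranged from 312 to 432 CPM in control pools and from 207 to 272 in HU pools (-0.70), and HR+ luminal Sox9 from 213 to 275 and from 137 to 187 (-0.79). The Brca2mut/WT libraries gave -0.54, -0.65 and -0.93 for it.

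Most of the largest ratios by size alone in HR- luminal cells were larger in pools 2 and 4. Id1, an inhibitor of bHLH transcription factors, read 28.8 CPM in control and 81.8 in HU (1.48). Its control pools stood at 17.3, 37.0, 20.1 and 85.8 CPM and its HU pools at 21.8, 198, 21.2 and 281, so pools 1 and 3 were close to each other in both libraries. Pigr, the receptor that carries IgA into milk, had 59.7 and 12.5 CPM (-2.17), with 402 CPM in control pool 2 against 6.95 in HU pool 2. Tspan1, a tetraspanin, had 553 CPM in control pool 2 and at most 168 CPM in the remaining pools, and the log2 ratio of -1.74 rests largely on that pool. Cyp1b1, a cytochrome P450 enzyme (1.37), the haem oxygenase Hmox1 (1.32), the potassium channel subunit Kcne3 (1.29), Sez6 (-1.74) and Letm2 (-1.41) completed the ranking by size. Kcne3 also passed 1.5-fold within pools 1 and 3 (0.73), as did Pigr (-0.91), and Letm2 gave -1.50 there.

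All readings within pools 1 and 3 or within pools 2 and 4 were chosen after seeing the data, and same-numbered pools are not known to match. Within pools 1 and 3 alone, 13 of 5283 genes (0.246%) were called higher and 30 (0.568%) lower in HR- luminal cells. Within pools 2 and 4 these were 117 (2.06%) and 219 (3.86%) of 5672 genes. The number called also moved with single pools: leaving out HU pool 3 gave 60 higher and 72 lower, and leaving out HU pool 2 gave 15 higher. In basal cells, leaving out control pool 4 gave 302 higher and 405 lower and leaving out HU pool 2 gave 122 lower, and in HR+ luminal cells leaving out HU pool 2 gave 343 higher.

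**Figure D3:**
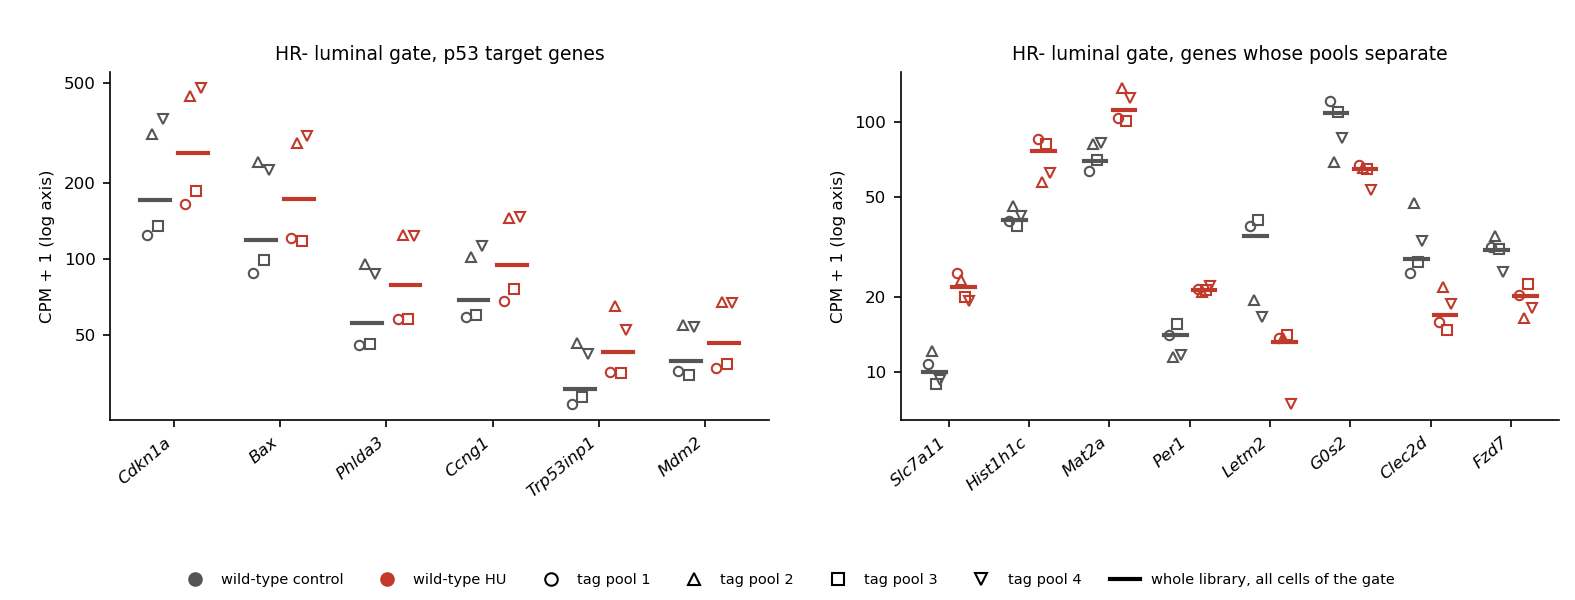
Levels in HR- luminal cells (CPM + 1, log axis) of 6 p53 target genes and of 8 genes picked from those whose pools did not overlap, control in grey and HU in red. Symbols are tag pools and bars whole libraries: Slc7a11 and Hist1h1c have no overlap between libraries, while Cdkn1a and Bax separate within pools 1 and 3 and within pools 2 and 4, with pools 2 and 4 on a higher level in both libraries.

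Genes that p53 activates were slightly higher in HU in HR- luminal cells. Of 16 tested list members 14 had a log2 ratio above 0, against 3049 of 5380 genes tested. The median was 0.26 against 0.03 for all genes, although Cdkn1a alone (1 of 16) passed 1.5-fold. Cdkn1a was at 124, 312, 134 and 361 CPM in control pools 1 to 4 and at 164, 444, 186 and 479 in HU pools, giving 171 and 263 CPM per library and a log2 ratio of 0.62. Its pools overlapped over all 4, since pools 2 and 4 carried more Cdkn1a in both libraries, but HU lay higher within pools 1 and 3 and within pools 2 and 4. Bax, which opens the mitochondrial membrane in apoptosis, behaved alike, with 86.6, 243, 97.7 and 224 CPM in control pools and 120, 289, 118 and 307 in HU pools (0.54). Phlda3, a repressor of Akt, gave 44.6, 94.9, 45.0 and 86.4 against 57.0, 124, 56.7 and 122 (0.49), and Ccng1, or cyclin G1, 57.9, 101, 58.7 and 111 against 66.8, 145, 75.3 and 146 (0.46). Mdm2, the ubiquitin ligase that degrades p53, read 38.2 and 45.5 CPM (0.25), and Trp53inp1, a p53-induced nuclear protein gene, 29.4 and 41.8 (0.50).

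In all, 9 of 16 p53 targets were higher without overlap within both kinds of pools and 0 were lower, where 14.9% of 5121 genes were higher and 12.2% lower in that way. This split of the pools was chosen after seeing the data. Over all 4 pools 2 of 16 were higher without overlap at any fold and 0 lower, against 3.36% and 4.89% of all genes. Median log2 ratios of the list were 0.18 within pools 1 and 3 and 0.40 within pools 2 and 4, and 0.14 in the Brca2mut/WT pair, where Cdkn1a gave 0.14. In the other gates the list median was lower. Basal cells had 0 of 19 members higher and 2 lower (median -0.10), against 2.49% and 3.19% of all genes. Below 0 were 13 of the 19, against 2579 of 5859 genes tested. Within pools 1 and 3, 12 of 19 were below 0, and within pools 2 and 4, 13 of 20. HR+ luminal cells had 2 of 25 higher and 1 lower (0.04), against 3.56% and 4.85%, with 15 above 0 and 10 below.

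Basal Cdkn1a went against its HR- luminal value: it was at 149, 277, 226 and 285 CPM in control pools and 131, 159, 124 and 163 in HU pools, 258 and 160 per library (-0.69). HU pools lay in a narrow range below all but control pool 1. The Brca2mut/WT pair gave -0.68, and the wider filter on cells took the wild-type value to -0.33.

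Of the subunit RNAs of ribonucleotide reductase, the target of the drug, only Rrm2 was called higher in HU in basal cells. Rrm1, the large subunit of ribonucleotide reductase, was near equal in HR- luminal cells at 19.99 and 20.5 CPM. In basal cells Rrm1 had 31.4 and 47.4 CPM (0.58), just under 1.5-fold. Rrm2, the small subunit made in S phase, did not reach 20 CPM in HR- luminal cells. In basal cells Rrm2 was at 8.25, 20.7, 21.5 and 34.4 CPM in control pools and at 41.1, 57.6, 57.1 and 70.0 in HU pools, with no overlap and a log2 ratio of 0.91. The Brca2mut/WT libraries gave 0.15. Rrm2b, the p53-inducible subunit, stayed below 20 CPM in the HR- luminal and basal gates and read 31.4 and 24.9 CPM in HR+ luminal cells (-0.32).

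Basal cells of the HU library carried more RNA of the cell cycle. Of 23 tested DNA replication genes 9 were called higher and 0 lower, against 2.49% of all genes called higher. All 23 were above 0, against 3280 of 5859 genes tested, with a list median of 0.56. Mcm5, a subunit of the replicative helicase, was at 4.13, 12.1, 11.8 and 18.2 CPM in control pools and 19.4, 34.6, 29.1 and 31.0 in HU pools (0.95). Each HU pool exceeded each control pool, as for Tyms, which makes thymidylate (39.1 and 72.3 CPM per library, 0.87). Pcna, the sliding clamp, stood at 60.9 and 89.0 CPM (0.54). Of the 11 ribonucleotide reductase and deoxynucleotide genes 4 were called higher and 0 lower (median 0.48). Summed over the replication list, control pools had 484, 602, 736 and 779 CPM and HU pools 871, 1120, 1002 and 1076.

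Mitotic genes went further in the same direction but overlapped more. Of 23 G2/M genes 18 were called higher and 0 lower, median 0.73, against 2.49% of all genes called higher. Top2a, the topoisomerase that untangles chromosomes, was at 26.8, 25.9, 71.5 and 23.1 CPM in control pools and 78.2, 76.5, 68.6 and 58.2 in HU pools (1.20), with control pool 3 inside the HU range. The proliferation antigen Mki67 gave 28.3 and 52.1 CPM (0.86), the mitotic kinase Cdk1 27.9 and 50.8 (0.84), the survivin gene Birc5 49.4 and 90.3 (0.86) and the cyclin gene Ccna2 11.4 and 27.3 (1.19). Hist1h1b, a replication-dependent linker histone, separated fully (36.4 and 101 CPM, 1.44). Under the wider cell filter Hist1h1b gave 0.39, Top2a 0.37, Ccna2 0.44 and Cdk1 0.28, each under 1.5-fold. List sums were 375, 969, 1221 and 690 CPM in control pools and 1102, 1391, 1125 and 1227 in HU pools.

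Within pools 1 and 3, 212 of 5929 basal genes (3.58%) were called higher and 219 (3.69%) lower, and within pools 2 and 4, 192 (3.3%) and 218 (3.74%) of 5825. Within pools 1 and 3 the basal G2/M median was 0.60 and within pools 2 and 4 it was 0.82. Of 20 replication genes 15 were higher without overlap within both kinds of pools, against 15.7% of 5418 genes, and of 20 G2/M genes 7. That split was chosen after seeing the data. Over all 4 pools 11 of 23 replication and 5 of 23 G2/M genes were higher without overlap at any fold, against 4.92% of all genes. Among basal cells with low summed cell-cycle RNA the replication median was 0.04. Those cells were chosen by the sum of the replication and G2/M lists themselves, so that median was largely set by the choice. The wider cell filter took the G2/M median to 0.34 and the replication median to 0.37. In the Brca2mut/WT pair these medians were -0.31 and 0.27. In HR- luminal cells 0 of 8 replication and 0 of 11 G2/M genes were called, with medians of 0.02 and -0.13. Only 0.483% of all genes were called higher there and 0.558% lower, so these counts say little about either list.

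**Figure D4:**
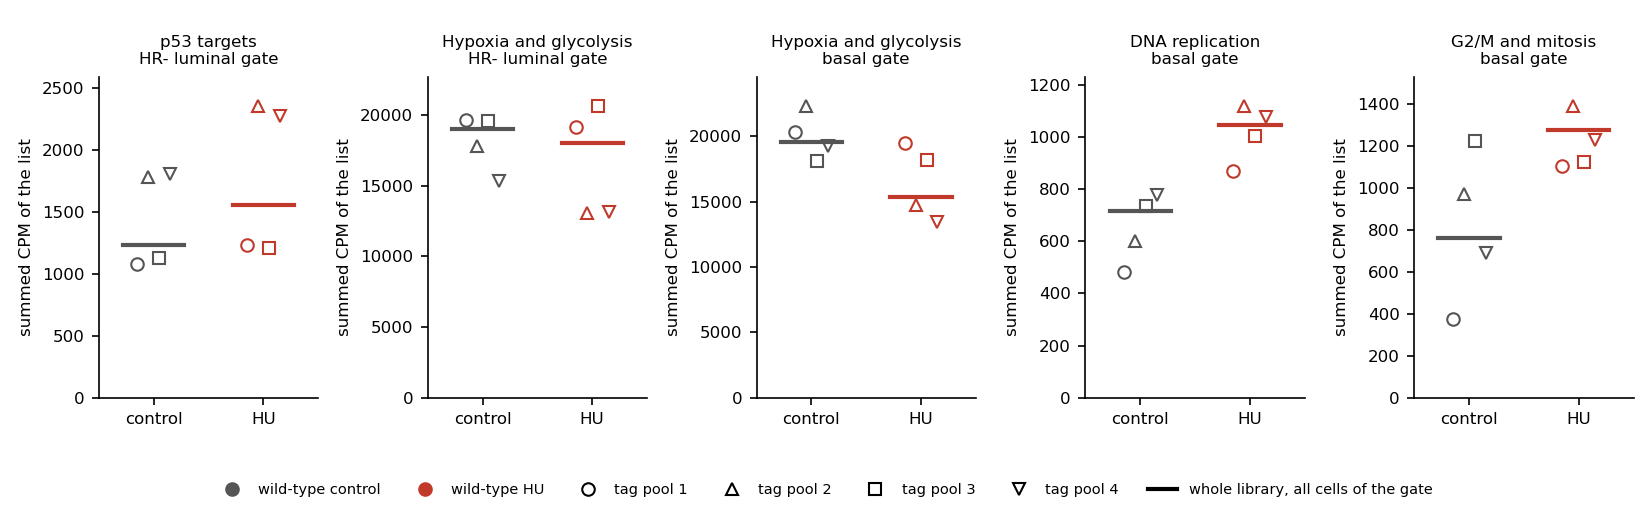
Summed level of a gene list (CPM, linear axis from 0) per library (bars) and tag pool (symbols), control in grey and HU in red. Basal DNA replication sums separate (484 to 779 against 871 to 1120 CPM), p53 target sums separate only within pools 1 and 3 and within pools 2 and 4, and hypoxia sums are lowest in HU pools 2 and 4.

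Genes of hypoxia and glycolysis were lower in HU in each lineage. The list holds targets of HIF-1, the factor that is stabilised when oxygen is short, and counted 4 of 31 members lower in HR- luminal cells (median -0.18), 11 of 34 in basal cells (-0.41) and 16 of 34 in HR+ luminal cells (-0.48). None was called higher in any gate, and the shares of all genes lower were 0.558%, 3.19% and 4.85%. The Brca2mut/WT medians were -0.39, -0.26 and -0.40. Vegfa, the angiogenic growth factor, went from 104 to 62.4 CPM in HR- luminal (-0.72), from 147 to 72.0 in basal (-1.02) and from 168 to 69.9 in HR+ luminal cells (-1.26). Basal Vegfa was at 285, 144, 307 and 92.9 CPM in control pools and 230, 39.5, 177 and 42.5 in HU pools, so that the libraries overlapped while each kind of pool separated. In HR+ luminal cells control pools 1, 2 and 4 had 189, 188 and 153 CPM of Vegfa and HU pools 2 and 4 had 57.4 and 44.5, with no overlap.

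Ankrd37, a small ankyrin-repeat protein gene, separated fully in basal cells with 56.2, 47.2, 39.8 and 37.4 CPM in control pools and 27.1, 7.56, 17.6 and 14.3 in HU pools (-1.60, Brca2mut/WT pair -1.08). HR+ luminal Ankrd37 gave 86.3, 104 and 70.6 CPM in control pools 1, 2 and 4 and 30.4 and 11.1 in HU pools 2 and 4 (-1.63, Brca2mut/WT pair -1.60). Ddit4, an inhibitor of mTORC1 signalling, was at 236, 205, 231 and 221 CPM in basal control pools and 81.8, 121, 86.2 and 112 in basal HU pools (-0.97, the same in the Brca2mut/WT pair), again without overlap. The vasodilator peptide gene Adm had log2 ratios of -0.998, -1.76 and -2.01 in HR- luminal, basal and HR+ luminal cells. Hexokinase 2, encoded by Hk2, gave -0.81, -1.18 and -1.19, and the endoplasmic reticulum oxidase Ero1l -0.62, -0.99 and -1.48. Car9, a carbonic anhydrase of the cell surface, had 152 and 53.4 CPM in HR+ luminal cells (-1.49). P4ha2, a collagen prolyl hydroxylase, gave -1.07 in basal cells.

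How far the list moved differed between the kinds of pools, as did the share of all HR- luminal genes called. In HR- luminal cells its median was -0.03 within pools 1 and 3, with 3 of 31 members lower, against 0.568% of all genes. Within pools 2 and 4 it was -0.51, with 12 of 31 lower, against 3.86% of all genes. Whether the list differed more between the kinds of pools than all genes did was not tested. Basal medians were -0.10 and -0.47 in the same order. By this split, chosen after seeing the data, 15 of 34 basal members were lower without overlap within both kinds of pools, against 8.91% of all genes. Fam162a, a mitochondrial hypoxia-induced protein gene, was at 1485 and 805 CPM in basal cells (-0.88), but gave 0.059 within pools 1 and 3. Summed over the list, basal control pools had 20278, 22321, 18129 and 19206 CPM and HU pools 19439, 14740, 18188 and 13415.

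HIF-1 binds DNA at the core letters ACGTG, so the 250 bases before the start of each gene in the RefSeq promoter table (GRCm38.p6, the same assembly as the mm10 of the files) were searched for them on both strands. The core was present in 17 of 32 matched members (53.1%), against 16.6% of all 27025 promoters. Of members called lower it was present in 7 of 10 matched in basal cells and in 10 of 14 in HR+ luminal cells, where about 23.7% and 23.2% of the genes tested had it. In HR- luminal cells 1 of 3 matched members had it. A match says only that the letters occur. The list was made of HIF-1 targets, so a share above that of all genes does not bear on HU. Whether members called lower had the core more often than other members was not tested. The windows below show the core nearest the start for 5 members called lower in the basal or HR+ luminal gate, 5′ to 3′ on the gene's strand, with the core in capitals (CACGT is the same core read from the other strand). They lie at chr8:45999851-45999868 (minus strand), chr4:43506996-43507024 (plus), chr10:59951941-59951969 (minus), chr12:54204087-54204115 (minus) and chr6:82774490-82774518 (minus) in the order given, upstream of the starts in the RefSeq table. The GENCODE bodies of Ankrd37 (chr8:45996902-46005707) and Car9 (chr4:43506966-43513729) begin farther upstream, so those 2 windows lie inside them.
Ankrd37: cagtgtttgggtACGTGa
Car9: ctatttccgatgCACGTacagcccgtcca
Ddit4: agaacgttgcgaACGTGcgcccggtgcct
Egln3: tgtgcatctcagACGTGagatccaggttt
Hk2: aatgagcacatcCACGTcactgtccgggg

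By the ranking of separated pools, Nupr1 was lower and the matrix genes Col14a1 and Bgn were higher in basal cells of the HU library. The basement membrane and matrix list as a whole had 0 of 29 members called higher and 4 lower (median -0.20). Of all basal genes 2.49% were called higher and 3.19% lower. Nupr1, a stress-induced chromatin protein gene, was at 984, 938, 823 and 636 CPM in control pools and 311, 166, 472 and 180 in HU pools, with no overlap. The library values of 750 CPM (95% interval 736 to 763) and 228 CPM (222 to 235) gave -1.71, the Brca2mut/WT pair -1.19, and the wider cell filter -1.01. Fcgbp, a mucin-like secreted protein gene, gave 57.9 and 14.6 CPM (-1.91, Brca2mut/WT pair -1.73), Ecm1, an extracellular matrix protein gene, 170 and 59.8 (-1.49) and Fam13a 21.8 and 5.60 (-1.79), each without overlap. Col14a1, a fibril-associated collagen, was at 7.22, 2.88, 5.38 and 3.77 CPM in control pools and 29.4, 20.3, 24.3 and 16.7 in HU pools (2.00, Brca2mut/WT pair 0.89). The small proteoglycan gene Bgn stood at 13.7 and 44.0 CPM (1.62, Brca2mut/WT pair 1.23), and Tsc22d3, which encodes the glucocorticoid-induced leucine zipper, at 26.6 and 60.5 (1.16), also without overlap. Igfbp6, a binding protein of insulin-like growth factor 2, had 6.33 and 33.3 CPM (2.23).

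Some basal extremes belonged to single cells. A single control cell held all 800 UMIs of Lce3f and 567 of the 568 of Lce3c, cornified envelope genes that rank lowest by size, and 57.0% of the HU UMIs of Klk6, a kallikrein protease gene ranked highest (2.97), came from 1 cell. Klk6 was lower in HU within pools 1 and 3 (-2.82). Sprr1a, another cornified envelope gene, had 736 and 88.9 CPM (-3.03), with 43.2% of control UMIs in 1 cell.

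Contractile genes of myoepithelium were higher in basal HU cells in 4 of 11 members and lower in 0 (median 0.29). Of all basal genes 2.49% were called higher and 3.19% lower. None of the 11 members had pools without overlap at any fold. For all basal genes 4.92% were higher and 3.53% lower in that way, so this says little. Acta2, smooth muscle actin, was at 539, 149, 517 and 302 CPM in control pools and 1316, 574, 533 and 352 in HU pools (0.93), overlapping over all pools. Mylk, the myosin light chain kinase gene, gave 8.45 and 28.0 CPM (1.62) and Cnn1, or calponin, 10.3 and 28.6 (1.38). Cnn1 was seen in only 28 of 757 control and 77 of 896 HU cells, and the wider cell filter took its log2 ratio to 0.26. With the wider cell filter the list median was 0.08, and the Brca2mut/WT median was 0.03. Inhba, the activin A subunit gene, was lower in HU (126 and 26.9 CPM, -2.19), as was Id3, an inhibitor of bHLH factors (88.9 and 33.3 CPM, -1.39). Krt15, a basal keratin, had 84.1 and 221 CPM.

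Antimicrobial and acute-phase genes were lower in HU in 6 of 11 basal members (median -0.64), against 3.19% of all basal genes. Of the 11 members 0 had pools without overlap at any fold. For all basal genes 4.92% were higher and 3.53% lower in that way, so this 0 says little. List sums were 5527 to 17926 CPM in basal control pools and 3744 to 13450 in HU pools. Lcn2, lipocalin 2, which starves bacteria of iron, had 4860 and 3475 CPM in the basal gate (-0.48) against 36735 CPM in control HR- luminal cells. HR- luminal markers summed to 2726 to 5419 CPM in basal control pools and 2062 to 4940 in HU pools, with 1 of 5 tested members called higher and 0 lower, and their part in the result was not tested.

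**Figure D5:**
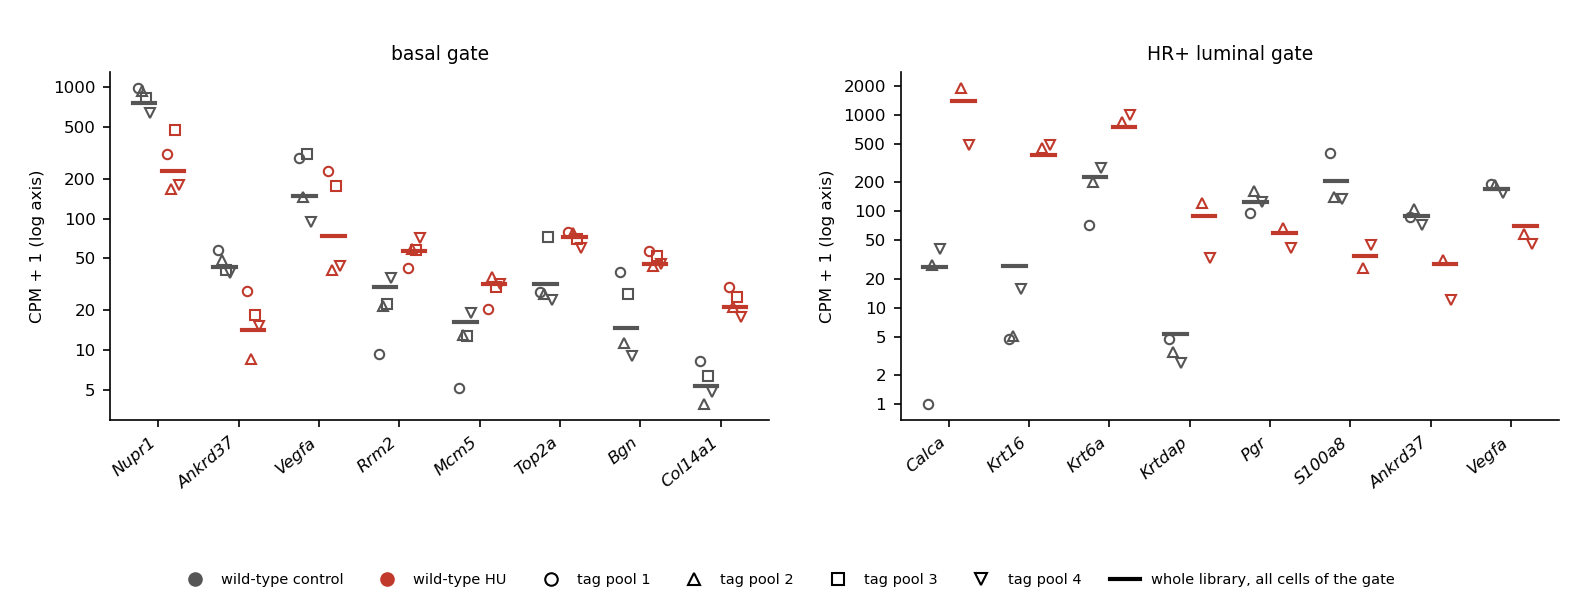
Levels (CPM + 1, log axis) of 8 genes in the basal gate and 8 in the HR+ luminal gate, control in grey and HU in red, with tag pools as symbols and whole libraries as bars. In basal cells Nupr1 and Ankrd37 are lower and Rrm2, Mcm5, Bgn and Col14a1 higher in HU without overlap, and in HR+ luminal cells Calca goes from 25.4 to 1383 CPM with only control pools 1, 2 and 4 and HU pools 2 and 4 large enough to plot.

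HR+ luminal cells of the HU library had more Calca, which encodes calcitonin and the calcitonin gene-related peptide, and more squamous keratins. Calca was at 0, 26.4 and 39.5 CPM in control pools 1, 2 and 4 and at 1902 and 490 in HU pools 2 and 4. The library values of 25.4 CPM (95% interval 21.2 to 30.2) and 1383 CPM (1349 to 1418) gave a log2 ratio of 5.71, and 6.02 without the cell richest in Calca in each library. At least 1 UMI was seen in 17 of 224 control and 80 of 174 HU cells of the gate. For comparison, 13 of 4209 control and 214 of 3457 HU cells of the HR- luminal gate had one, at like median depth and at 0.17 and 5.68 CPM. The Brca2mut/WT libraries gave 748 and 617 CPM (-0.28), so of the 4 libraries the wild-type control stood apart.

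Keratins were called higher in HU in 5 of 10 HR+ luminal members and lower in 0 (median 0.57). Of all genes tested in this gate 3.56% were called higher and 4.85% lower. Krt6a, a keratin of stressed and squamous epithelium, was at 71.3, 201 and 278 CPM in control pools 1, 2 and 4 and 831 and 997 in HU pools 2 and 4 (1.70). Its partner Krt16 had 26.0 and 382 CPM (3.83) and Krt17 47.5 and 317 (2.71). Squamous differentiation genes counted 9 of 16 higher and 2 lower (median 0.82), against -0.35 in the Brca2mut/WT pair, where Krt16 gave -3.16. Krtdap, a keratinocyte differentiation gene, gave 4.34 and 87.4 CPM (4.05), the cornified envelope gene Crct1 1.38 and 46.9 (4.33), the kallikrein gene Klk10 3.64 on the log2 scale and the suprabasin gene Sbsn 1.20. Few cells carried this RNA: 1 cell held 82.4% of the HU UMIs of Slurp1, a secreted keratinocyte protein gene (5.96), 62.3% of Krtdap and 40.7% of Krt16.

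Basal markers summed to 84.4 to 749 CPM in control HR+ luminal pools and 567 to 751 in HU pools, with 1 of 5 tested members higher and 2 lower (median -0.48), and their part in these results was not tested. The member higher was Krt17, which is also counted among the keratins, while Acta2 had 35.3 and 8.01 CPM and Vim 40.03 and 17.4. Without the cells that also passed the basal gate, the squamous median was 0.39, Krt16 gave 1.66, Krt6a 0.73 and Krtdap 1.35. Summed over the whole squamous list the pools overlapped, at 6228 to 7737 CPM in control and 7346 to 8825 in HU.

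On the lower side, Pgf, placental growth factor, read 207 and 34.5 CPM in HR+ luminal cells (-2.55, Brca2mut/WT pair -2.26), and Has2, a hyaluronan synthase, Cstdc5, a stefin, and Sncg, gamma-synuclein, gave -2.42, -2.44 and -2.28, each without overlap. Under the wider cell filter Cstdc5 was higher in HU (0.56). Antimicrobial and acute-phase genes were lower in 10 of 11 members (median -1.18, Brca2mut/WT pair -0.56), against 4.85% of all genes. S100a8, a calprotectin subunit, had 205 and 33.1 CPM (-2.59), Lrg1 gave -1.92, the protease inhibitor Slpi 1562 and 592 CPM (-1.40) and Lcn2 3762 and 1704 (-1.14). HR- luminal markers moved along, with 4 of 5 tested members lower and 1 higher and sums of 1979 to 3754 CPM in control pools and 1240 to 1307 in HU pools. Among them Csn3 read 1517 and 741 CPM (-1.03) and Wfdc18 424 and 186 (-1.19), and their part in the antimicrobial result was not tested.

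Hormone genes of HR+ luminal cells did not shift together. Pgr was at 95.7, 159 and 125 CPM in control pools 1, 2 and 4 and 66.4 and 40.4 in HU pools 2 and 4 (-1.08, without overlap), where the Brca2mut/WT pair gave -0.15. Esr1, the oestrogen receptor gene, had 26.2 and 16.5 CPM (-0.64), and its partner factor Foxa1 gave -0.28. Prlr, at 862 and 933 CPM, differed by 0.11, or by -0.88 without HU pool 2. Of the Wnt ligands, Wnt4, a target of the progesterone receptor, was at 261 and 404 CPM (0.63, or 0.086 without HU pool 2) and Wnt5a, which acts outside the canonical pathway, at 306 and 130 (-1.23).

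Alveolar genes of the HR- lineage bear on the study's question about this population, and 3 of 12 milk and secretion genes were called higher and 0 lower (median -0.02). Thrsp, a regulator of milk fat synthesis, read 47.2, 112, 54.6 and 81.7 CPM in control pools and 92.0, 239, 77.7 and 207 in HU pools (57.9 and 131 per library, 1.17), against 0.23 in the Brca2mut/WT pair. HU was higher within each kind of pool, but over all 4 pools the libraries overlapped. Lalba, the milk protein alpha-lactalbumin, had 348 and 570 CPM (0.71), with HU pool 4 at 242 inside the control range of 202 to 390, and 0.87 within pools 1 and 3. Spp1, osteopontin, gave 889 and 1847 CPM (1.05), from 4017 and 5367 CPM in HU pools 2 and 4, and -0.03 within pools 1 and 3. Cdkn2a, the p16 and p19Arf locus, stood at 115 and 191 CPM (0.73). Tspan8, a tetraspanin of luminal progenitors, had 112 and 101 CPM (-0.15), with control pools 2 and 4 at 289 and 226 CPM and the remaining pools of both libraries between 80.4 and 112. None of 33 interferon-response genes was called either way in HR- luminal cells, where only 0.483% of all genes were called higher and 0.558% lower. At those shares 0 of 33 says little about the list. Ifit3 had 243 and 220 CPM (-0.14). Within pools 2 and 4 alone 3 of 35 were called lower, against 3.86% of all genes. There 30 of 35 were below 0 (median -0.26), against 3068 of 5672 genes. Within pools 1 and 3, 14 of 33 were below 0 (median 0.02). Without overlap within both kinds of pools 6 of 33 were lower and 0 higher, against 12.2% and 14.9% of all genes.

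The HR- luminal gate had few called genes, which limits how many can be called in the same direction in all lineages. Of 4653 genes tested in each of the 3 gates, Cited4, a transcriptional co-regulator of alveolar cells, and Per1 were higher in all, and 9 genes were lower in all. These were the hypoxia genes Adm, Ero1l, Hk2 and Vegfa, the acute-phase genes Cp (ceruloplasmin) and Hp (haptoglobin), and Clec2d, Fam13a and Fcgbp. Between basal and HR+ luminal cells 75 genes were lower in both, which is 48.7% of the basal and 32.6% of the HR+ luminal genes called lower among those tested in each. The 48 control and 28 HU cells that passed both of these gates were counted in each, and their part in this sharing was not tested. HR- luminal and HR+ luminal cells shared 15 lower genes, 88.2% of the HR- luminal and 7.85% of the HR+ luminal ones. HR- luminal and basal cells shared 9, 50% of the HR- luminal and 9.68% of the basal ones. Of the higher genes HR- luminal cells shared 5 with basal cells (27.8% of the HR- luminal ones) and 7 with HR+ luminal cells (38.9%).

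The Brca2mut/WT libraries, which share no sample with the wild-type ones, gave the same sign for 47 of the 56 genes called in HR- luminal cells (83.9%) where 66.8% of all tested genes did so. In basal cells 256 of 333 called genes had the same sign (76.9% against 64.4%), and in HR+ luminal cells 328 of 510 (64.3% against 60.8%). Among genes of the stricter rule the counts were 12 of 13, 75 of 92 and 252 of 369. Past 1.5-fold in the opposite direction were 2, 10 and 52 of the called genes.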

How the data were processed

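Single-cell RNA was sequenced from 4 droplet libraries, of which the wild-type control and wild-type HU libraries were compared. The authors aligned reads to mm10 and deposited raw UMI counts per gene and cell for cell-called barcodes. Their processing notes name Cell Ranger 6.0.2, Seurat 4.0 and R 4.1.3, while the file headers name another Cell Ranger release. No strand or doublet step is given in the sources used here, and no doublets were removed here beyond the limit of 6000 genes. Filtered cells held 126866429 UMIs in the control and 111457607 in the HU library.

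Counts were summed per gate and scaled to CPM. Intervals are exact Poisson for sums and Clopper-Pearson for shares, at 95%. Tags were called with a 2-component mixture per tag and library. Analyses used Python 3.11.15, numpy 2.4.6, pandas 2.3.3, scipy 1.17.1, scikit-learn 1.9.0 and, for TMM scaling only, edgeR 4.0.16 in R 4.3.3. Fold recovery was tested on simulated data.

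The gates, gene lists and rules were chosen with earlier results of these data known. Named genes were the largest ratios each way among genes whose pools did not overlap (8 in the HR- luminal gate, 5 in the others) and by size alone (4 and 2), up to 6 members of each list by size, and preset p53, reductase, alveolar and lineage genes. Krt14 and Areg were used as gate genes only. Alternatives changed the cell filter, tag call, gates, depth, scaling, pool weights, pseudocount, gene minimum and fold, and left out single pools. All samples were assigned, and the labels do not say that pools are separate animals.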

Additional observations from a re-analysis of the deposited data

Results flagged for a closer look

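Of the genes tested in more than 1 gate, 19 were called in opposite directions in a pair of gates, and the difference between gates was not tested. Id3 had a log2 ratio of HU over control of 0.99 in HR- luminal cells, from pools 2 and 4, against -1.39 in basal cells and -0.59 in HR+ luminal cells. Cdkn1a had 0.62 in HR- luminal against -0.69 in basal cells. Tspan1, whose HR- luminal value rests largely on control pool 2, gave -1.74 against 0.70 in HR+ luminal cells, and Arrdc3, an arrestin-domain gene, 0.67 against -1.12.

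Between basal and HR+ luminal cells, the genes called in opposite directions included cell-cycle genes that were higher in the first and lower in the second, namely Ube2c (0.84 and -1.06), Cdk1 (0.84 and -1.01), Prc1 (0.66 and -1.004), Smc2 (0.71 and -0.59), Mcm7 (0.63 and -0.74) and the histone gene Hist1h2ap (0.64 and -1.46). Cdc20 and Cenpa, of the same kind, were called higher in both gates. The HR+ luminal G2/M list had 2 of 14 members higher and 3 lower, against 3.56% and 4.85% of all genes. Acta2 gave 0.93 and -2.01 in the same order. Some squamous and cornified envelope genes were lower in basal and higher in HR+ luminal cells, with Krt6a at -0.99 and 1.70, Sprr1b at -2.12 and 2.23, Sprr2a3 at -1.16 and 1.29, Crct1 at -4.03 and 4.33, Cst6 at -1.02 and 0.67 and Anxa8 at -0.76 and 0.70, while Krtdap was called higher and Sprr1a lower in both. Wnt4 had -0.61 and 0.63, and the chemokine gene Cxcl5 -1.004 and 0.68. The cells that passed both gates were counted in each.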

How the results depend on the processing

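The number of libraries limits every comparison: 1 a side gives no treatment error, and HR+ luminal cells also have few cells. No paired analysis was possible because each group was 1 library and the tag pools carry no replicate numbers. TMM scaling moved all log2 ratios by -0.03. Apart from leaving out pools, 1354 of 1474 values of named genes and 1010 of 1064 list medians moved by less than their standard deviation over tag pools. That spread was wide for many genes and lists, so a move within it need not be small.

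Genes called higher and lower were 17 and 15 in HR- luminal, 56 and 97 in basal and 97 and 135 in HR+ luminal cells at 50 CPM or more, 92 and 114, 582 and 687, and 1096 and 1477 with no minimum, and 7 and 8, 29 and 60, and 72 and 81 at 2-fold. Pools called by the top tag at 3 times the next gave 5 and 8, 38 and 38, and 140 higher under the stricter rule, whose counts by the mixture call were 5 and 8, 48 and 44, and 135 higher. The wider cell filter gave 47 lower in HR- luminal, 69 and 117 in basal and 111 and 171 in HR+ luminal cells. Equal weight of pools gave 67 lower in HR- luminal and 408 and 467 in HR+ luminal cells. Leaving out single pools gave 15 to 60 higher and 28 to 72 lower in HR- luminal, 107 to 302 and 122 to 405 in basal, and 198 to 343 and 277 to 441 in HR+ luminal cells. Pools 1 and 3 gave 13 higher and pools 2 and 4 gave 117 higher and 219 lower in HR- luminal cells.

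Stricter gates turned the HR- luminal share difference to 0.184 percentage points, equal weight of pools gave -1.44 there and -2.85 for HR+ luminal cells, and single pools left out gave -12.5 to 3.10, -0.948 to 11.5 in basal and -2.23 to 1.07 in HR+ luminal cells. The cause was not tested for these or for the following log2 ratios, which reversed. Basal Dcn, a fibroblast marker gene at -2.16, became 0.15 under the wider filter, 0.76 without cells of both gates and 0.80 in pools 1 and 3. Basal squamous genes (-0.22) became 0.045 under the wider filter and 0.12 in pools 1 and 3, where basal retinoid and fluid transport genes (-0.56) gave 0.039, Fam162a 0.059, Klk6 -2.82 and HR- luminal Spp1 -0.029. Among cells with low cell-cycle RNA, basal DNA damage repair genes gave -0.049, HR- luminal markers in basal cells 0.13, and in HR+ luminal cells EMT genes 0.0498 and basal markers 0.65. In HR+ luminal cells Cstdc5 became 0.56 and basal markers (-0.48) 0.29 under the wider filter, and basal markers 0.58 with stricter gates and -0.77 to 1.06 as single pools were left out. Over single pools left out Slurp1 ranged from -0.035 to 7.53 and luminal markers (0.35) from -0.10 to 0.47.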

Other observations

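In HR- luminal cells of pools 2 and 4 alone, genes chosen after their values were seen separated most between the libraries. Lactoferrin, encoded by Ltf, went from 10.6 CPM in control to 56.1 in HU, and Spp1 from 1292 to 4416. Pigr went from 230 to 14 CPM (a log2 ratio of -3.91), Sez6 from 125 to 15, the peroxisomal oxidase gene Pipox from 193 to 40.4 and Ceacam10 from 313 to 53. In pools 1 and 3 Pipox stayed between 17.96 and 24.9 CPM in all pools of both libraries.

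Genes of cholesterol synthesis were called higher in HU in 12 of 18 basal members within pools 1 and 3 (median log2 ratio 0.67), against 3.58% of all genes. Within pools 2 and 4 it was 1 of 16 (0.23), against 3.3%. These readings were chosen after seeing the data, and pools 1 and 3 rest on 202 control and 192 HU cells. Genes of ribosome biogenesis were above 0 in 17 of 18 members in HR- luminal (median 0.20) and in 21 of 21 in basal cells (0.32), with 1 and 0 of them past 1.5-fold higher. In HR+ luminal cells 20 of 22 were above 0 (0.22). Of all genes tested 3049 of 5380, 3280 of 5859 and 3286 of 6060 were above 0 in these gates. The Brca2mut/WT medians of the list were 0.13, 0.04 and 0.28.

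Of 23 basal interferon-response genes tested in both kinds of pools 12 were lower in HU without overlap within pools 1 and 3 and within pools 2 and 4, and 0 were higher, against 8.91% and 15.7% of all genes. That split of the pools was chosen after seeing the data. The list median over all basal cells was -0.25, with 2 of 27 members called higher and 2 lower, against 2.49% and 3.19% of all genes.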
